A study of Homo sapiens with 30 samples.

Results

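Interferon-stimulated genes are the genes that cells switch on after they sense an interferon. The 47 described here were chosen as a fixed list of gene symbols, from well-known members of the response, and were matched to the gene tables by Ensembl identifier. All 47 were present among the 38526 genes of the first count table and the 36291 of the second, and all 47 passed the filter on low counts in every fit. They cover the IFIT family, the OAS, MX and PKR effectors, the ISG15 system, the IFI genes, membrane-associated proteins, PARP, TRIM and nuclear proteins, 2 immunoproteasome subunits and factors that carry the signal.

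The cells came from MDA-MB-231, a human triple-negative breast cancer line, marked with LeGO lentiviral barcodes so that the progeny of single cells can be told apart. Cells of subclone 2 and of subclone 13 were sorted from the primary tumours, the lung metastases and the liver metastases of 3 mice (mice 1, 2 and 3), which gives 6 groups of 3 samples. A retransplantation experiment added subclone 2 samples labelled lung metastasis and liver metastasis from mice 4, 5 and 6. All hosts were NSG mice (NOD-SCID-IL2Rγc−/−), which have no mature T, B or natural killer cells, so the response described here is that of human tumour cells in hosts without those cells. Each subclone is 1 clone of 1 line, and the labels do not say whether the organ of a retransplanted sample is where the transplanted cells came from or where they grew.

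Type I interferons bind IFNAR1 and IFNAR2, and the kinases JAK1 and TYK2 then phosphorylate STAT proteins such as STAT2, which joins IRF9 in the complex ISGF3. This complex binds a DNA element known as the interferon-stimulated response element (ISRE), while interferon gamma acts at another element, the gamma-activated site (GAS). Many of the targets are also kept at a steady level without added interferon, and IRF3 can drive some of them, IFIT genes among them, directly after a nucleic acid sensor has fired. In tumour cells a raised set of interferon-stimulated genes has been linked to resistance to DNA-damaging therapy.

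The sequence that many of these genes share is shown first, for 8 members named in the comparisons below. RefSeq promoters of GRCh38.p14, from 250 bases before to 50 after each gene start, were listed for 38 of the 47 members. Either strand was searched for the ISRE core GAAANNGAAA, which reads TTTCNNTTTC on the other strand, and matches were allowed to overlap. It was present in 26 of the 38 members (68.4%), against 1195 of the 27305 genes with a listed promoter (4.38%). The GAS core TTCNNNGAA was present in 11 of the 38 members (28.9%), against 9.38% of the genes. The lines give the 170 bases before the RefSeq start in the direction of the gene, with the bases of every ISRE core in capitals. IFIT1 (chr10:89392453-89392622), IFIT3 (chr10:89327827-89327996), HERC5 (chr4:88456949-88457118) and IFIH1 (chr2:162318685-162318854, minus strand) had lower means in lung and in liver than in the tumours of both subclones. ISG15 (chr1:1013327-1013496), IFI6 (chr1:27672193-27672362, minus strand), IFI27 (chr14:94110566-94110735) and BST2 (chr19:17405631-17405800, minus strand) were lower in every liver metastasis than in every lung metastasis of subclone 2.
IFIT1: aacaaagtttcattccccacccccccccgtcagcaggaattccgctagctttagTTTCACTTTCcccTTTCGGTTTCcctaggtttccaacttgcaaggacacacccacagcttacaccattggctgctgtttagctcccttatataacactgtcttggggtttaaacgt
IFIT3: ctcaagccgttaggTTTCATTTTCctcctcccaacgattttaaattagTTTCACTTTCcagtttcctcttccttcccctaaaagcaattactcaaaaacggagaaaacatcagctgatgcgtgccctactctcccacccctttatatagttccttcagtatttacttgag
HERC5: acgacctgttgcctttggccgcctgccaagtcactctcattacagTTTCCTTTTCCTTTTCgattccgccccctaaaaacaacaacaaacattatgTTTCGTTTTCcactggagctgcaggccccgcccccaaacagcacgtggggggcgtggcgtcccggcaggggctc
IFIH1: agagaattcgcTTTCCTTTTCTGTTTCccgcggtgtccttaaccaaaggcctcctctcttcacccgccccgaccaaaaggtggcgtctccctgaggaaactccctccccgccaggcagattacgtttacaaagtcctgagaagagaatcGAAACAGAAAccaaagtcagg
ISG15: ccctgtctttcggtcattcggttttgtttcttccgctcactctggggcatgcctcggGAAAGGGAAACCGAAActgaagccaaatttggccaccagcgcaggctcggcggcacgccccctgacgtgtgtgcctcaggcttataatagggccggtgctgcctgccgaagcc
IFI6: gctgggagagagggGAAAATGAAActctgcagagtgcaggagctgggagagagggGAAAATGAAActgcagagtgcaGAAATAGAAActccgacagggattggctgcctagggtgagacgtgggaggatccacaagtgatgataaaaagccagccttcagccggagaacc
IFI27: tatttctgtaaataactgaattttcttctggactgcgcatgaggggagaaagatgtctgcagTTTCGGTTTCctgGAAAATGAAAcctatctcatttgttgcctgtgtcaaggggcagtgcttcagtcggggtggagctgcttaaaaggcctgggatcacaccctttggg
BST2: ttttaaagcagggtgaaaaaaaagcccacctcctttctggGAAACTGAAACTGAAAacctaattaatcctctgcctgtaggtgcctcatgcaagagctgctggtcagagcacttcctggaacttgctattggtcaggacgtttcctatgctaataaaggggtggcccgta
All 8 were taken from the 26 members with a core, and each window held 2 or 3. OAS1, also lower in every liver metastasis than in every lung metastasis of subclone 2, had no ISRE core in its listed promoter. A match is a description of the letters in the window and was not tested for binding.

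The samples held 11.8 to 82.2 M counts (M is 1e+06) for mice 1 to 3 and 23.4 to 32.3 M for mice 4 to 6. Markers of the line were high in every sample, with summed levels of 5803 to 15602 CPM (counts per M counts, scaled by TMM) for 6 genes led by VIM. Markers of leukocytes summed to 3.78 to 18.2 CPM, those of lung epithelium to 1.92 to 8.28 CPM and those of hepatocytes to 0.0819 to 24.1 CPM, where APOA1 led in subclone 13. The counts of mice 1 to 3 list 8 of 10 leukocyte, 5 of 5 lung and 4 of 6 hepatocyte markers, and none of those listed was at 0 in every sample. Endothelial markers, led by PECAM1, summed to 28.7 to 33.7 CPM in the liver metastases of subclone 2, above its lung metastases (14.8 to 17.3 CPM) and tumours (15.4 to 18.3 CPM). In subclone 13 they summed to 18.3 to 47.8 CPM in liver, above lung (12.5 to 17.8 CPM) and overlapping the tumours (17.7 to 25.7 CPM). In the retransplantation samples they summed to 19.8 to 31.5 CPM in lung and 9.39 to 22.9 CPM in liver, with overlap. Fibroblast markers, led by COL1A1, summed to 18.9 to 40.9 CPM in subclone 2 liver, below its tumours (60.9 to 139 CPM). Its lung samples, at 28.2 to 97.8 CPM, overlapped both. In subclone 13, fibroblast markers summed to 63.0 to 156 CPM in tumours, 38.6 to 69.8 CPM in lung and 33.1 to 87.9 CPM in liver, with overlap. Leukocyte markers summed to 12.7 to 15.2 CPM in subclone 13 tumours, above its lung (4.03 to 9.74 CPM) and within the range of its liver (5.45 to 18.2 CPM). Hepatocyte markers summed to 7.25 to 24.1 CPM in those tumours and 8.89 to 10.7 CPM in lung, above the 3.87 to 6.83 CPM of its liver samples. The counts are of human genes (GRCh38) and the hosts were mice, so low sums do not show that host cells were absent. Marker RNA of the human cells and mouse RNA counted as human cannot be told apart in these sums. The part of these differences in the results below was not tested. In bulk RNA, fewer cells with a transcript and less of it in each cell cannot be told apart.

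Levels were divided by the merged length of all annotated exons of a gene, which can exceed the length of the transcripts present. The order between genes is therefore approximate. IFI27 and ISG15 had mean levels of 239 and 253 CPM and were divided by 4.147 and 0.941 kb. On this measure ISG15 was the highest member over the 18 samples of the first experiment, with 269 ± 138 CPM per kb (mean ± SD). IFIT3 (168 ± 113), IFITM3 (165 ± 38.6), IFIT2 (164 ± 105) and BST2 (153 ± 38.7) followed, and their differences from each other were well within these spreads. IFIT1 (80.8 ± 55.0), IFI6 (73.3 ± 58.7), IFI44 (58.1 ± 29.5) and IFI27 (57.6 ± 23.4) formed the next step. At the bottom stood MX2 (1.37 ± 1.20), XAF1 (1.27 ± 1.29), EPSTI1 (1.23 ± 0.862), RSAD2 (1.14 ± 1.43) and CMPK2 (0.308 ± 0.525). These spreads include the differences between organs and mice described next.

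**Figure D1:**
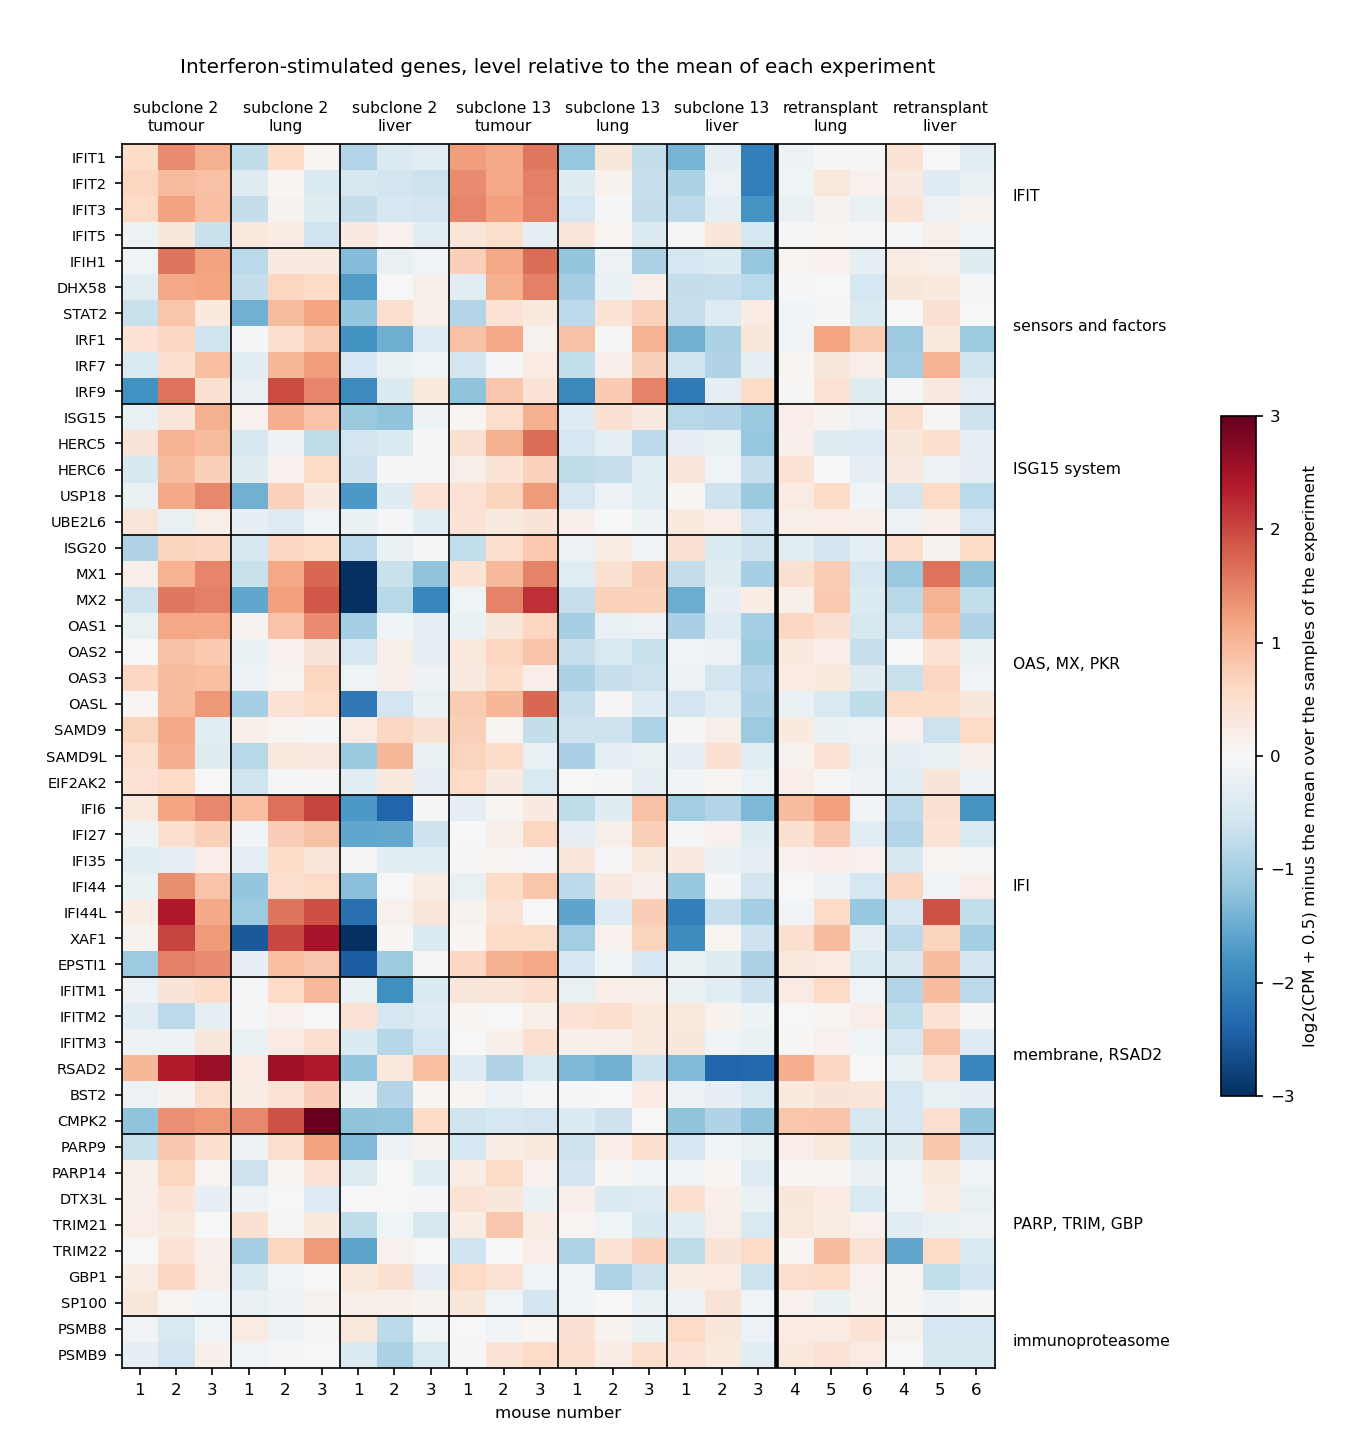
Heat map of the 47 members (rows, by role) in the 24 samples (columns, by group and mouse); colour is log2(CPM + 0.5) minus the gene's mean over its experiment, and colours stop at 3 in either direction. In the 4 tumour samples of mice 2 and 3, 35 to 41 of the 47 members lie above their mean, and in the 6 liver samples of the first experiment 5 to 18 do.

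Liver metastases held less of this RNA than the primary tumours in both subclones. The fitted log2 fold change was negative for 43 of 47 members in subclone 2 liver and for 43 of 47 in subclone 13 liver. Its median over the members was -0.87 and -0.64, beside 0.049 and 0.021 over all genes tested. In lung the median was -0.41 for subclone 13 (35 of 47 lower) and -0.047 for subclone 2 (24 of 47 lower), beside 0.032 and 0.052 over all genes. The subclone 2 lung median was positive without the lung of mouse 1 (0.16) or without the tumour of mouse 2 (0.074). Lung and liver were both compared with the same tumour samples, so these are not independent results.

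The number of members past the threshold (adjusted p under 0.05, edgeR quasi-likelihood F test, adjusted over all genes) depended on whether the fit compared organs within the mouse. Without a mouse term, 4 members fell in subclone 13 liver (IFIT1, IFIT2, IFIT3 and HERC5), where 0.293% of all genes did. IFIT2, IFIT3 and HERC5 fell in subclone 13 lung, where 0.27% of all genes did. None passed in subclone 2, against 0.201% of all genes lower in its liver and 0.253% lower in its lung. There the unadjusted p was under 0.05 for 23 and 6 members, and DESeq2 passed 8 and 2 members. Here and below, the shares of all genes at an unadjusted p under 0.05 or called by DESeq2 were not counted. Such member counts therefore have no background, and the percentages given apply to the edgeR threshold only. With mouse as a term, 12 members were lower in subclone 13 liver (1.4% of all genes), 15 in subclone 2 liver (1.18%), 9 in subclone 13 lung (2.12%) and 3 in subclone 2 lung (1.83%). No member passed as higher in any of these 4 comparisons in either fit. Of all genes, 0.184%, 0.149%, 0.0861% and 0.0919% were higher without the mouse term, and 1.23%, 0.764%, 0.494% and 0.431% with it, in the order subclone 2 lung, subclone 13 lung, subclone 2 liver and subclone 13 liver. Of the members lower with the mouse term, 10 were shared by the liver of both subclones (IFIT1, IFIT2, IFIT3, IFIH1, DHX58, ISG15, IFI44, MX2, OAS1 and OASL) and 3 by the lung of both (IFIT2, IFIT3 and HERC5). How many of all genes were shared in this way was not counted.

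Single libraries moved these counts. Here and below, the share of all genes called in fits that left out samples was not counted, so those member counts have no background. Without the mouse term, the 3 members that fell in subclone 13 lung became 0 without any 1 of the 3 lung samples or the tumour of mouse 3, and 1 without the tumour of mouse 1 or mouse 2. The 4 of subclone 13 liver became 2 without the liver of mouse 1, the liver of mouse 3 or the tumour of mouse 3. With the mouse term, the 12 of subclone 13 liver became 7 without the liver of mouse 2 or of mouse 3, and the 9 of subclone 13 lung became 5 without the lung of mouse 2. The 15 of subclone 2 liver became 9 without the tumour of mouse 2. The 3 of subclone 2 lung became 0 without the tumour of mouse 3 and 1 without the tumour of mouse 2, the lung of mouse 1 or the lung of mouse 2. With the mouse term, the members that passed in every fit that left out 1 sample were IFIT1, IFIT2, IFIT3, HERC5, IFIH1, ISG15 and OASL in subclone 13 liver and IFIT1, IFIT2, IFIT3, HERC5 and IFIH1 in subclone 13 lung. In subclone 2 liver they were IFIT1, IFIT3, IFI6, IFI27, MX1, MX2 and OASL.

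**Figure D2:**
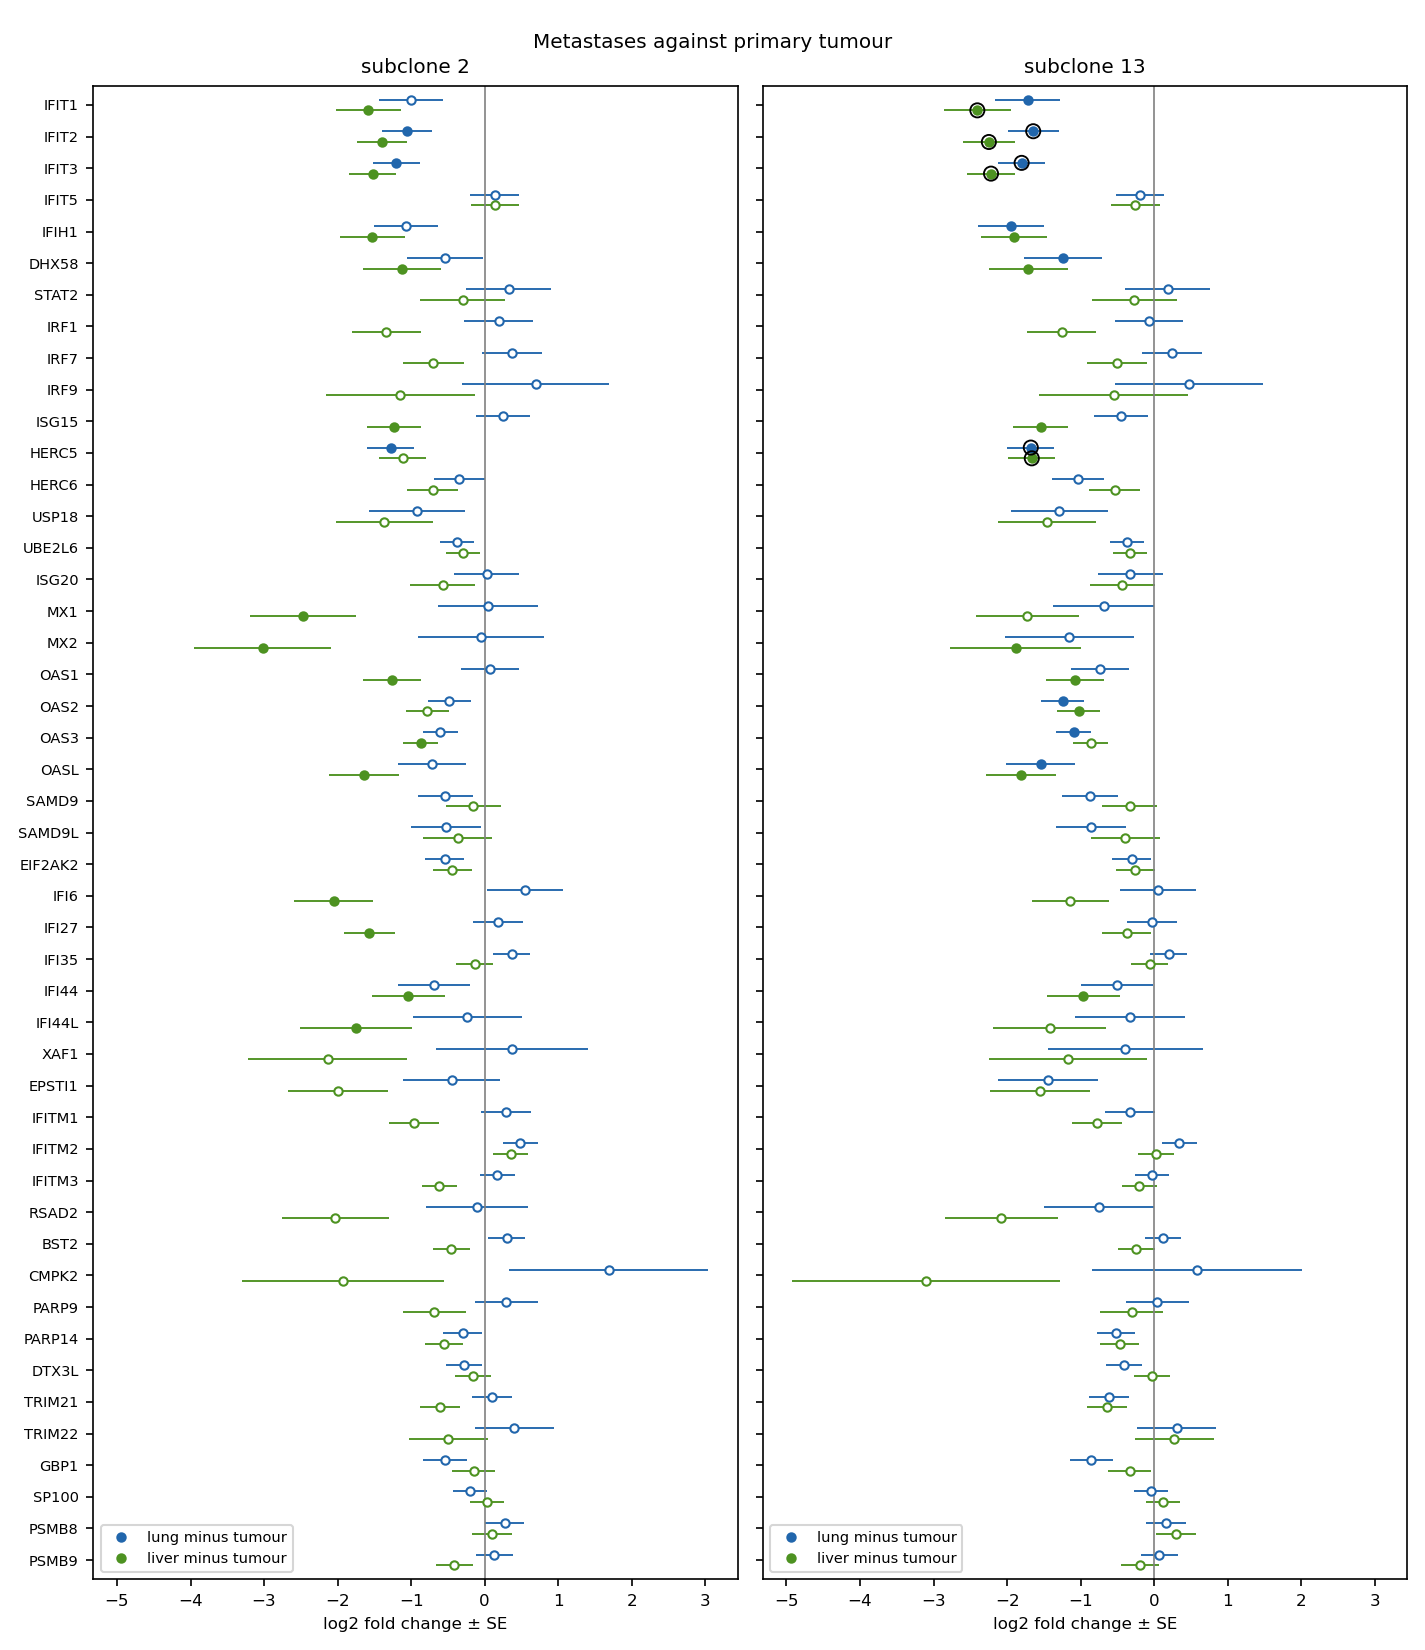
Log2 fold change of lung or liver metastasis against primary tumour for all 47 members (vertical axis) in each subclone; points are estimates from the fit without a mouse term and bars are 1 SE. Filled points passed the threshold with the mouse term and black rings without it, and the filled points all lie below 0. IFIT1, IFIT2, IFIT3 and HERC5, but not IFIT5, are low in each panel, and IFI27, IFI6 and the MX genes are low in the liver of subclone 2.

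The IFIT proteins bind viral RNA with foreign 5′ ends and hold back its translation. IFIT1, IFIT2, IFIT3 and IFIT5 lie in a cluster on chromosome 10, with IFIT3 at chr10:89327894-89340971, plus strand (GRCh38, gene start to end). IFIT3 stood at 551, 835 and 679 CPM in tumours, 220.3, 393 and 284 CPM in lung and 221, 255 and 243 CPM in liver in subclone 2, in the order mouse 1, 2 and 3. In subclone 13 it stood at 996, 849 and 1024 CPM in tumours, 253, 349 and 221 CPM in lung and 209, 301 and 106 CPM in liver. All 6 metastasis samples of each subclone lay below all of its tumours, and the lung and liver samples overlapped. The log2 fold change was -2.22 ± 0.33 (SE) in subclone 13 liver (adjusted p = 0.00403 without and 5.45e-05 with the mouse term) and -1.80 ± 0.32 in its lung (adjusted p = 0.0152 without and 0.000391 with the mouse term). In subclone 2 it was -1.52 ± 0.32 in liver (adjusted p = 0.0513 without and 0.00270 with the mouse term) and -1.20 ± 0.32 in lung (adjusted p = 0.129 without and 0.0106 with the mouse term). Here and below, fold changes and their SE come from the fit without a mouse term, and both adjusted p-values are from edgeR.

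IFIT2, the IFIT member that also binds AU-rich RNA, stood at 872, 1064 and 1027 CPM in tumours, 434, 581 and 413 CPM in lung and 399, 378 and 352 CPM in liver in subclone 2. Its values in subclone 13 were 1474, 1239 and 1587 CPM in tumours, 432, 601 and 342 CPM in lung and 286, 487 and 132 CPM in liver. The metastases were again below the tumours without overlap, and the subclone 13 tumours were above those of subclone 2. In subclone 13 the log2 fold change was -2.25 ± 0.35 in liver (adjusted p = 0.00578 without and 0.000132 with the mouse term) and -1.64 ± 0.34 in lung (adjusted p = 0.0424 without and 0.00223 with the mouse term). Subclone 2 had -1.39 ± 0.34 in liver (adjusted p = 0.129 without and 0.0117 with the mouse term) and -1.05 ± 0.34 in lung (adjusted p = 0.247 without and 0.0388 with the mouse term). A small part of its exons, 10.3%, overlaps other genes.

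IFIT1, which recognises RNA caps without 2′-O methylation, stood at 432, 782 and 619.6 CPM in tumours, 174, 429.6 and 314 CPM in lung and 159.6, 217 and 235 CPM in liver in subclone 2. Subclone 13 had 705, 651 and 889 CPM in tumours, 133, 370.0 and 178 CPM in lung and 112, 242 and 70.1 CPM in liver. Mouse 2 had the most IFIT1 among the metastases of each organ in subclone 13 and in subclone 2 lung. The log2 fold changes were -2.40 ± 0.46 in subclone 13 liver (adjusted p = 0.0208 without and 0.000141 with the mouse term), -1.72 ± 0.45 in its lung (adjusted p = 0.120 without and 0.00222 with the mouse term), -1.58 ± 0.44 in subclone 2 liver (adjusted p = 0.228 without and 0.0106 with the mouse term) and -0.998 ± 0.44 in its lung (adjusted p = 0.475 without and 0.0681 with the mouse term). IFIT5, which sits at the end of the same cluster, did not pass in any comparison. Its fold changes against the tumours ran from -0.25 to 0.14 and its 18 values from 26.7 to 61.7 CPM.

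**Figure D3:**
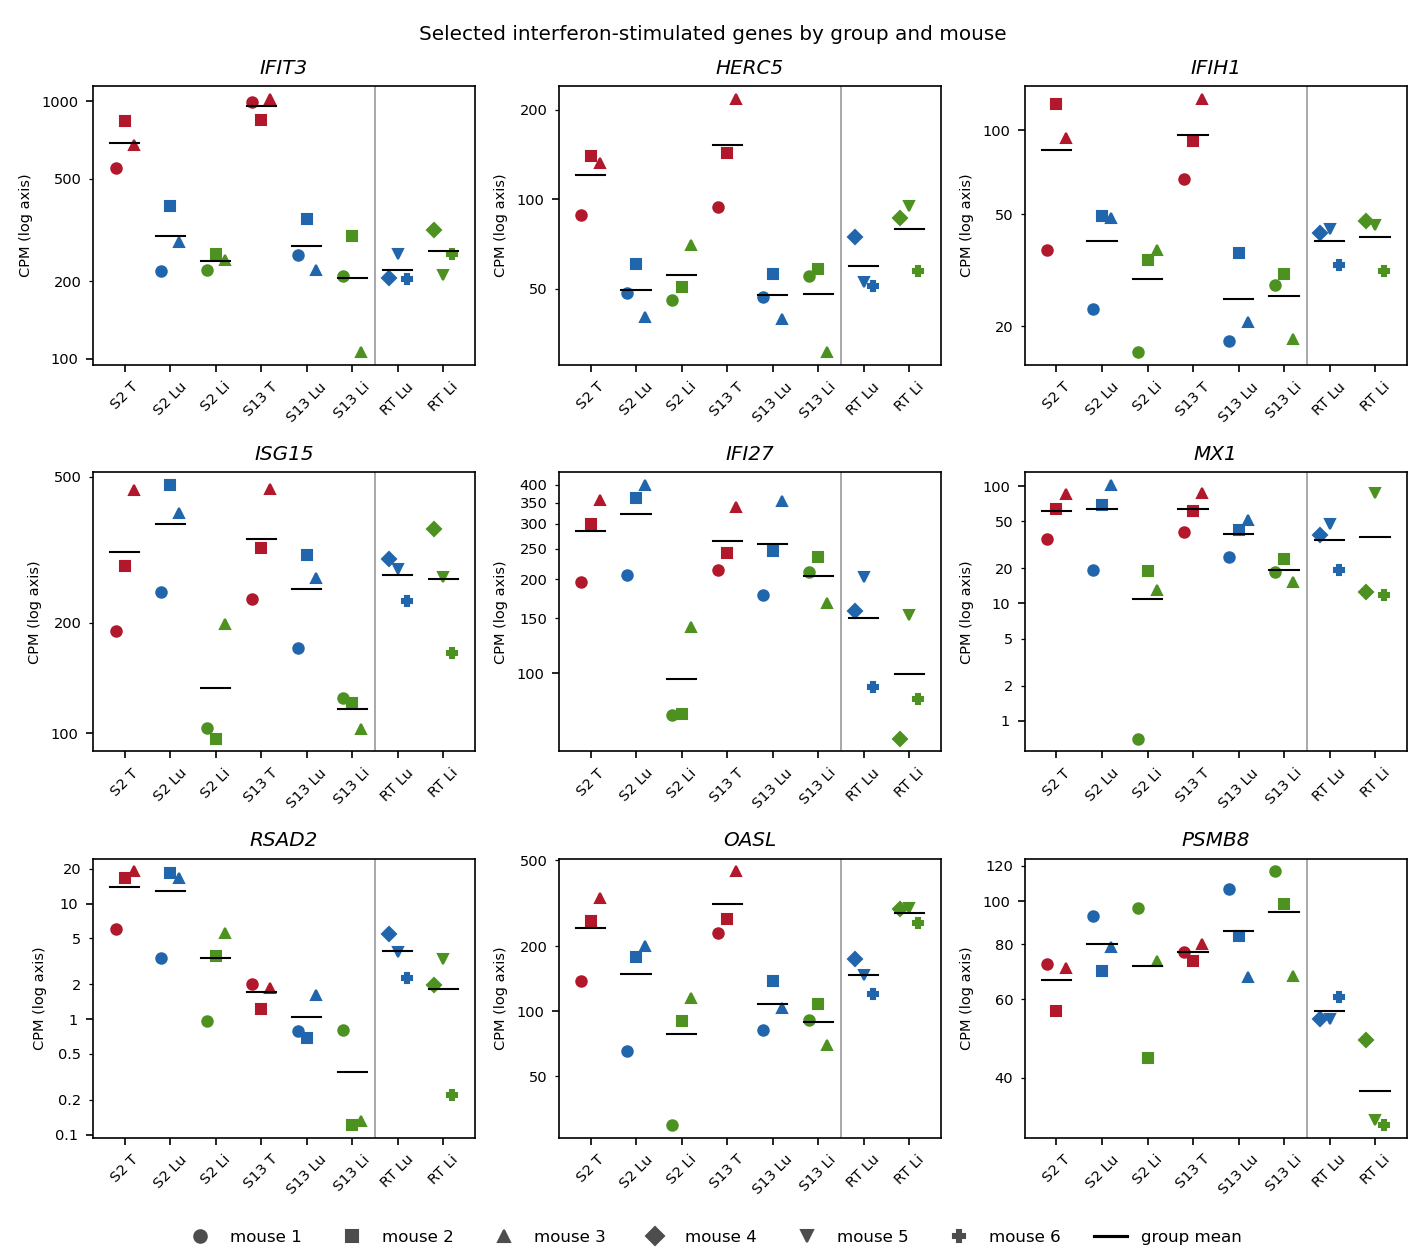
Level of 9 members in CPM (log axis) in every sample, by subclone (S2, S13), retransplantation (RT) and organ (T tumour, Lu lung, Li liver); markers show the mouse and lines the group mean. IFIT3, HERC5 and IFIH1 are lower in lung and in liver than in the tumours, IFI27 is low in the liver of subclone 2, RSAD2 is lower in subclone 13, and PSMB8 overlaps between the organs of each subclone.

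Among the sensors and factors of the pathway, the RNA sensor IFIH1 (MDA5, chr2:162267079-162318703, minus strand) was lower in both organs. It stood at 37.2, 124 and 93.7 CPM in tumours, 23.0, 49.3 and 48.7 CPM in lung and 16.1, 34.5 and 37.4 CPM in liver in subclone 2. The subclone 13 values were 67.2, 91.4 and 129 CPM in tumours, 17.7, 36.6 and 20.6 CPM in lung and 28.0, 30.5 and 18 CPM in liver. Every subclone 13 metastasis lay below every subclone 13 tumour, while the low tumour of mouse 1 overlapped the metastases in subclone 2. Log2 fold changes were -1.95 ± 0.45 in subclone 13 lung (adjusted p = 0.0658 without and 0.00125 with the mouse term), -1.91 ± 0.45 in its liver (adjusted p = 0.0828 without and 0.00223 with the mouse term), -1.53 ± 0.44 in subclone 2 liver (adjusted p = 0.246 without and 0.0121 with the mouse term) and -1.07 ± 0.44 in its lung (adjusted p = 0.417 without and 0.0681 with the mouse term).

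DHX58 (LGP2), a regulator of the RNA sensors, stood at 18.6, 51.1 and 52.9 CPM in tumours, 13.9, 36.4 and 33.98 CPM in lung and 6.86, 23.1 and 26.0 CPM in liver in subclone 2. Its subclone 13 values were 18.6, 49.1 and 66.5 CPM in tumours, 11.3, 20.1 and 25.6 CPM in lung and 13.98, 14.03 and 12.9 CPM in liver. The tumours of mouse 1 were low in both subclones, at the level of many metastases. Its log2 fold change was -1.71 ± 0.53 in subclone 13 liver (adjusted p = 0.315 without and 0.0145 with the mouse term), -1.24 ± 0.53 in its lung (adjusted p = 0.548 without and 0.0372 with the mouse term) and -1.12 ± 0.52 in subclone 2 liver (adjusted p = 0.724 without and 0.0459 with the mouse term).

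The transcription factors did not pass against the tumours. IRF7, the factor that amplifies the type I response, stood at 43.0, 82.5 and 112 CPM in tumours, 46.8, 119 and 142 CPM in lung and 41.0, 51.4 and 54.2 CPM in liver in subclone 2. Samples of subclone 13 had 40.6, 57.6 and 70.7 CPM in tumours, 35.5, 65.9 and 98.4 CPM in lung and 39.1, 31.6 and 48.5 CPM in liver. Liver and tumour overlapped in both subclones, and the fold change against the tumour was -0.70 ± 0.41 in subclone 2 liver (adjusted p = 0.917 without and 0.291 with the mouse term). IRF9, the DNA-binding part of ISGF3, stood at 0.991, 15.7 and 6.64 CPM in tumours, 3.95, 19.8 and 13.9 CPM in lung and 0.898, 3.47 and 6.02 CPM in liver in subclone 2. Subclone 13 had 1.77, 8.66 and 6.49 CPM in tumours, 0.871, 8.56 and 14.2 CPM in lung and 0.712, 3.81 and 7.16 CPM in liver. Mouse 1 was lowest in each of these 6 groups. Of the IRF9 exon length 48.4% overlaps another annotated gene on the same strand. Reads from that part cannot be assigned to 1 of the 2 genes, so the IRF9 level is uncertain. STAT2 ranged from 36.2 to 228 CPM and IRF1, which answers to interferon gamma and to NF-kB signals, from 40.8 to 315 CPM. Neither passed in any comparison. IRF1 had a log2 fold change of -1.34 ± 0.47 in subclone 2 liver (adjusted p = 0.437 without and 0.102 with the mouse term) and -1.26 ± 0.47 in subclone 13 liver (adjusted p = 0.522 without and 0.120 with the mouse term). Other annotated genes overlap 28.0% of the IRF1 exon length, so its level is uncertain too.

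ISG15 is a ubiquitin-like protein that is attached to other proteins by UBE2L6 and the ligases HERC5 and HERC6 and removed by USP18. HERC5 (chr4:88457117-88506163, plus strand) stood at 88.7, 140.0 and 132 CPM in tumours, 48.2, 60.6 and 39.96 CPM in lung and 45.9, 50.7 and 70.0 CPM in liver in subclone 2. Subclone 13 values were 93.9, 144 and 218 CPM in tumours, 46.9, 56.1 and 39.4 CPM in lung and 55.0, 58.1 and 30.5 CPM in liver. All metastases lay below all tumours within each subclone, and lung and liver overlapped. Against the tumours the log2 fold change was -1.68 ± 0.32 in subclone 13 lung (adjusted p = 0.0228 without and 0.00302 with the mouse term), -1.66 ± 0.32 in its liver (adjusted p = 0.0232 without and 0.00334 with the mouse term), -1.28 ± 0.32 in subclone 2 lung (adjusted p = 0.104 without and 0.0177 with the mouse term) and -1.12 ± 0.32 in its liver (adjusted p = 0.233 without and 0.0501 with the mouse term).

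ISG15 itself (chr1:1001138-1014540, plus strand) had another pattern. It stood at 190.0, 285 and 462 CPM in tumours, 242, 475 and 399.6 CPM in lung and 103, 96.5 and 199 CPM in liver in subclone 2. In subclone 13 it stood at 232, 319 and 465 CPM in tumours, 170.2, 306 and 265 CPM in lung and 124, 121 and 103 CPM in liver. Liver was low in both subclones, and lung overlapped the tumours in both subclones, with the subclone 2 lung of mouse 2 above every tumour of that subclone. The log2 fold change against the tumour was -1.54 ± 0.38 in subclone 13 liver (adjusted p = 0.104 without and 0.00492 with the mouse term) and -1.23 ± 0.37 in subclone 2 liver (adjusted p = 0.283 without and 0.0190 with the mouse term). In lung it was -0.45 ± 0.37 (adjusted p = 0.937 without and 0.505 with the mouse term) and 0.25 ± 0.37 (adjusted p = 0.916 without and 0.600 with the mouse term). UBE2L6, HERC6 and USP18 passed in no comparison. UBE2L6 ran from 24.1 to 47.6 CPM and USP18 from 0.770 to 10.8 CPM.

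OAS proteins make short 2′-5′ linked adenylates that switch on RNase L, and OASL is a relative that acts with RIG-I. OASL (chr12:121019111-121039242, minus strand) stood at 138, 260.0 and 332 CPM in tumours, 65.2, 179 and 201 CPM in lung and 29.7, 89.7 and 115 CPM in liver in subclone 2. Its subclone 13 values were 229, 266 and 444 CPM in tumours, 82.1, 137 and 103 CPM in lung and 91.0, 107 and 69.4 CPM in liver. Liver lay below tumour without overlap in both subclones, and lung did so in subclone 13. The log2 fold change was -1.81 ± 0.47 in subclone 13 liver (adjusted p = 0.151 without and 0.00561 with the mouse term), -1.64 ± 0.47 in subclone 2 liver (adjusted p = 0.240 without and 0.00571 with the mouse term), -1.54 ± 0.47 in subclone 13 lung (adjusted p = 0.228 without and 0.0109 with the mouse term) and -0.72 ± 0.46 in subclone 2 lung (adjusted p = 0.714 without and 0.203 with the mouse term).

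OAS1 stood at 38.8, 101 and 100.2 CPM in tumours, 48.7, 81.9 and 122 CPM in lung and 22.3, 41.3 and 36.7 CPM in liver in subclone 2. Subclone 13 had 39.7, 57.4 and 71.1 CPM in tumours, 22.3, 38.6 and 40.3 CPM in lung and 22.8, 34.5 and 22.2 CPM in liver. The lung samples of subclone 2 matched its tumours and those of subclone 13 lay mostly below theirs. Its log2 fold change was -1.26 ± 0.39 in subclone 2 liver (adjusted p = 0.306 without and 0.00618 with the mouse term) and -1.08 ± 0.39 in subclone 13 liver (adjusted p = 0.488 without and 0.0192 with the mouse term). OAS2 stood at 112, 209 and 197 CPM in tumours, 98.3, 125 and 148 CPM in lung and 79.3, 128 and 94.0 CPM in liver in subclone 2. For subclone 13 the values were 142, 178 and 207 CPM in tumours, 69.6, 81.7 and 70.6 CPM in lung and 105, 100.1 and 53.5 CPM in liver. Here it was the subclone 13 metastases of both organs that lay below the tumours, with -1.25 ± 0.29 in lung (adjusted p = 0.0751 without and 0.00856 with the mouse term) and -1.03 ± 0.29 in liver (adjusted p = 0.213 without and 0.0402 with the mouse term).

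OAS3 stood at 113, 141 and 136 CPM in tumours, 64.2, 77.2 and 115 CPM in lung and 66.9, 81.3 and 65.4 CPM in liver in subclone 2. Subclone 13 had 88.3, 107 and 83.8 CPM in tumours, 37.9, 45.1 and 47.5 CPM in lung and 64.2, 49.6 and 39.3 CPM in liver. The metastases were below the tumours in both subclones, apart from the subclone 2 lung of mouse 3. Log2 fold changes were -1.10 ± 0.24 in subclone 13 lung (adjusted p = 0.0518 without and 0.00864 with the mouse term) and -0.87 ± 0.24 in subclone 2 liver (adjusted p = 0.210 without and 0.0462 with the mouse term).

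The MX genes encode dynamin-like GTPases that act against viral nucleocapsids and capsids, and they lie next to each other on chromosome 21. MX1 (chr21:41420304-41459214, plus strand) stood at 35.1, 64.3 and 85.6 CPM in tumours, 19.2, 69.3 and 102 CPM in lung and 0.706, 19.0 and 13.1 CPM in liver in subclone 2. Its subclone 13 values were 41.0, 61.3 and 87.7 CPM in tumours, 24.8, 42.4 and 50.9 CPM in lung and 18.4, 23.9 and 15.2 CPM in liver. The subclone 2 liver of mouse 1 had under 1 CPM, the lowest of all samples, and every liver sample lay below every tumour in both subclones. Against the tumours the log2 fold change was -2.47 ± 0.72 in subclone 2 liver (adjusted p = 0.255 without and 0.00600 with the mouse term) and -1.72 ± 0.70 in subclone 13 liver (adjusted p = 0.634 without and 0.119 with the mouse term). MX2 stood at 7.12, 34.8 and 33.0 CPM in tumours, 3.47, 27.1 and 41.9 CPM in lung and 0.257, 6.08 and 2.54 CPM in liver in subclone 2. In subclone 13 it stood at 10.2, 32.7 and 53.4 CPM in tumours, 6.73, 18.4 and 18.4 CPM in lung and 3.71, 9.32 and 13.3 CPM in liver. Mouse 1 was lowest for MX2 in each of these 6 groups, as it was for MX1 in 5 of them. For MX2 the fold changes were -3.02 ± 0.93 in subclone 2 liver (adjusted p = 0.296 without and 0.000472 with the mouse term) and -1.88 ± 0.89 in subclone 13 liver (adjusted p = 0.834 without and 0.0251 with the mouse term). In subclone 2 liver mouse 1 stood far below mice 2 and 3 for MX1 and MX2, and the errors of these estimates are wide. PKR (EIF2AK2), ISG20, SAMD9 and SAMD9L passed in none of the comparisons.

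IFI27, a mitochondrial protein, and IFI6, a protein of the endoplasmic reticulum that blocks flavivirus replication, passed in subclone 2 liver with the mouse term, also in each fit that left out 1 sample. Without all samples of mouse 2, IFI6 no longer passed there. IFI27 (chr14:94104836-94116698, plus strand) stood at 196, 299.8 and 357 CPM in tumours, 206, 363 and 399 CPM in lung and 73.8, 73.9 and 140.1 CPM in liver in subclone 2. The subclone 13 values were 214, 242 and 339 CPM in tumours, 177, 246 and 355 CPM in lung and 210.3, 236 and 168 CPM in liver. The subclone 2 liver samples lay below all other subclone 2 samples, and the subclone 13 liver samples overlapped their tumours. The log2 fold change was -1.57 ± 0.34 in subclone 2 liver (adjusted p = 0.0667 without and 0.000791 with the mouse term), -0.37 ± 0.34 in subclone 13 liver (adjusted p = 1 without and 0.734 with the mouse term) and 0.18 ± 0.34 in subclone 2 lung (adjusted p = 0.939 without and 0.744 with the mouse term).

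IFI6 (chr1:27666061-27672218, minus strand) stood at 57.8, 106 and 126 CPM in tumours, 86.6, 146 and 191 CPM in lung and 13.7, 8.54 and 47.3 CPM in liver in subclone 2. Its subclone 13 values were 38.5, 48.7 and 56.3 CPM in tumours, 27.3, 35.9 and 85.9 CPM in lung and 22.3, 24.8 and 18.1 CPM in liver. The livers of mice 1 and 2 in subclone 2 were the lowest of the 18, and every liver sample lay below every tumour of its subclone. Log2 fold changes were -2.06 ± 0.53 in subclone 2 liver (adjusted p = 0.164 without and 0.00291 with the mouse term) and -1.14 ± 0.52 in subclone 13 liver (adjusted p = 0.797 without and 0.197 with the mouse term).

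IFI44 and IFI44L, related proteins encoded side by side on chromosome 1, varied with the mouse and with the organ. IFI44 stood at 91.6, 278 and 189 CPM in tumours, 46.9, 145 and 155 CPM in lung and 43.8, 106 and 122 CPM in liver in subclone 2. Subclone 13 had 89.1, 156 and 185 CPM in tumours, 60.7, 125 and 117 CPM in lung and 47.4, 102 and 71.2 CPM in liver. Mouse 1 was lowest in each of the 6 groups. Against the tumours the log2 fold change was -1.04 ± 0.49 in subclone 2 liver (adjusted p = 0.748 without and 0.0111 with the mouse term) and -0.96 ± 0.49 in subclone 13 liver (adjusted p = 0.924 without and 0.0170 with the mouse term). IFI44L stood at 17.5, 80.5 and 33.1 CPM in tumours, 6.77, 46.2 and 58.0 CPM in lung and 2.76, 16.4 and 19.4 CPM in liver in subclone 2. Samples of subclone 13 had 16.1, 20.1 and 14.8 CPM in tumours, 4.59, 11.3 and 25.1 CPM in lung and 3.24, 8.95 and 7.09 CPM in liver. The lung of mouse 3 in subclone 13 was above all of its tumours. The IFI44L fold change was -1.75 ± 0.76 in subclone 2 liver (adjusted p = 0.666 without and 0.0449 with the mouse term). IFI35, EPSTI1 and XAF1 passed in no comparison, and XAF1 ran from 0 CPM in the subclone 2 liver of mouse 1 to 30.8 CPM in the lung of mouse 3. A part of the XAF1 exons, 38.3%, overlaps another annotated gene.

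The membrane-associated members were IFITM1, IFITM2 and IFITM3, which hinder the fusion of viruses with cell membranes, BST2 (tetherin), which holds budding virus at the surface, and RSAD2 (viperin) with its neighbour CMPK2. IFITM3 stood at 195, 195 and 273 CPM in tumours, 186, 255 and 305 CPM in lung and 162, 120.2 and 150.3 CPM in liver in subclone 2. In subclone 13 it stood at 218, 239 and 301 CPM in tumours, 239, 241 and 263 CPM in lung and 275, 197 and 188 CPM in liver. IFITM1 had 41.1, 61.3 and 67.8 CPM in tumours, 44.8, 71.1 and 91.5 CPM in lung and 40.7, 12.7 and 34.5 CPM in liver in subclone 2. Of the 18 samples the subclone 2 liver of mouse 2 was lowest for both, and the subclone 2 livers lay below the tumours without overlap. Subclone 13 had 59.3, 59.6 and 64.9 CPM in tumours, 39.9, 53.6 and 52.5 CPM in lung and 40.4, 36.5 and 30.0 CPM in liver of IFITM1. Against the tumours neither passed: in subclone 2 liver the log2 fold change was -0.62 ± 0.24 for IFITM3 (adjusted p = 0.518 without and 0.163 with the mouse term) and -0.96 ± 0.34 for IFITM1 (adjusted p = 0.441 without and 0.156 with the mouse term). BST2 stood at 147, 178 and 238 CPM in tumours, 194, 221 and 277 CPM in lung and 149, 89.8 and 173 CPM in liver in subclone 2. For subclone 13 the values were 175, 147 and 164 CPM in tumours, 163, 165 and 199 CPM in lung and 149, 141 and 121 CPM in liver. Liver and tumour overlapped in both subclones, with a log2 fold change of -0.45 ± 0.25 in subclone 2 liver (adjusted p = 0.859 without and 0.344 with the mouse term). IFITM1, IFITM2 and IFITM3 share 32.5%, 22.8% and 21.3% of their exon length with other annotated genes. The IFITM copies are also alike in sequence, so their split is uncertain. IFITM2 passed in no comparison.

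In the remaining groups PARP9 was the single member that passed in any comparison, in lung against liver of subclone 2. PARP9, a partner of DTX3L in the response to interferon, stood at 21.5, 60.7 and 48.8 CPM in tumours, 31.2, 50.0 and 79.7 CPM in lung and 13.4, 30.6 and 37.2 CPM in liver in subclone 2. Subclone 13 had 23.9, 40.1 and 42.3 CPM in tumours, 22.0, 39.5 and 48.1 CPM in lung and 23.7, 32.5 and 29.7 CPM in liver. DTX3L, the ubiquitin ligase of that pair, stood at 62.8, 75.2 and 47.4 CPM in tumours, 51.0, 57.3 and 43.5 CPM in lung and 55.9, 55.9 and 54.1 CPM in liver in subclone 2. PARP9 was lowest in mouse 1 in all 6 groups, and DTX3L in none of them. The genes start next to each other and share 217 bp of exon. In subclone 13 DTX3L had 75.9, 71.7 and 49.3 CPM in tumours, 63.0, 42.4 and 43.0 CPM in lung and 79.2, 63.3 and 49.5 CPM in liver. Against the tumours, the fold changes of PARP9 ran between -0.69 and 0.30 and those of DTX3L between -0.41 and -0.036, and none passed. PARP14, TRIM21, TRIM22, GBP1 and SP100 also stayed above the threshold. The immunoproteasome subunit PSMB8, which answers mainly to interferon gamma, stood at 72.1, 56.5 and 70.7 CPM in tumours, 92.3, 69.4 and 78.9 CPM in lung and 96.4, 44.3 and 73.1 CPM in liver in subclone 2. In subclone 13 it stood at 76.7, 73.2 and 80.1 CPM in tumours, 106, 83.3 and 67.5 CPM in lung and 117, 98.5 and 67.9 CPM in liver. The organs overlapped within each subclone, and neither PSMB8 nor PSMB9 passed in any comparison. A non-significant test does not show that these levels were equal: the SE of the PSMB8 fold changes was about 0.27 on the log2 scale. Of the exon length of PSMB8 and PSMB9, 25.3% and 10.2% overlap other annotated genes, each other among them.

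Lung and liver metastases were compared directly as well. In subclone 2, 38 of 47 members were fitted higher in lung than in liver, with a median log2 fold change of 0.59 beside 0.0083 for all genes. Without the mouse term no member passed (0.00574% of all genes were higher), with 18 at an unadjusted p under 0.05 and 5 called by DESeq2. With it 12 were higher in lung, where 1.63% of all genes were: ISG15, IFI6, IFI27, PARP9, IFITM1, IFITM3, IRF7, IRF9, OAS1, BST2, MX1 and MX2. None of the IFIT genes, HERC5 or IFIH1 was among them. In subclone 13, 33 of 47 were fitted higher in lung, with a median of 0.27, and none passed without (0% of all genes, in either direction) or with the mouse term (0.276%), with 3 and 8 at an unadjusted p under 0.05 and 0 called by DESeq2.

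IFI6 had a log2 fold change of 2.60 ± 0.55 in subclone 2 (adjusted p = 0.107 without and 0.00117 with the mouse term). IFI27 had 1.75 ± 0.35 (adjusted p = 0.0889 without and 0.00113 with the mouse term), ISG15 had 1.49 ± 0.37 (adjusted p = 0.184 without and 0.00556 with the mouse term) and OAS1 had 1.33 ± 0.40 (adjusted p = 0.277 without and 0.00514 with the mouse term). For these 4 genes all 3 lung samples lay above all 3 liver samples. MX1 had 2.51 ± 0.72 (adjusted p = 0.251 without and 0.00891 with the mouse term) and MX2 2.97 ± 0.93 (adjusted p = 0.283 without and 0.00210 with the mouse term). IFITM1 (1.24 ± 0.35; adjusted p = 0.231 without and 0.0412 with the mouse term), IFITM3 (0.79 ± 0.24; adjusted p = 0.279 without and 0.0420 with the mouse term) and BST2 (0.75 ± 0.25; adjusted p = 0.315 without and 0.0486 with the mouse term) differed by less, again without overlap. IRF7 had 1.07 ± 0.41 (adjusted p = 0.404 without and 0.0414 with the mouse term), IRF9 1.84 ± 1.02 (adjusted p = 0.625 without and 0.0251 with the mouse term) and PARP9 0.98 ± 0.43 (adjusted p = 0.480 without and 0.0184 with the mouse term), where mouse 1 lung overlapped the livers of the other mice. In fits that left out 1 sample, IFI6, IFI27, MX2 and OAS1 passed each time with the mouse term. The 12 became 4 without the lung of mouse 2 and 7 without the lung of mouse 3 or the liver of mouse 2. Of the 15 members lower in subclone 2 liver than in the tumours, 6 were among these 12 (ISG15, IFI6, IFI27, OAS1, MX1 and MX2), and both comparisons use the same liver samples. The same overlap over all genes was not counted. The endothelial marker sums given above also differ between lung and liver of subclone 2, where the fibroblast sums overlap. The part of either in these results was not tested.

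**Figure D4:**
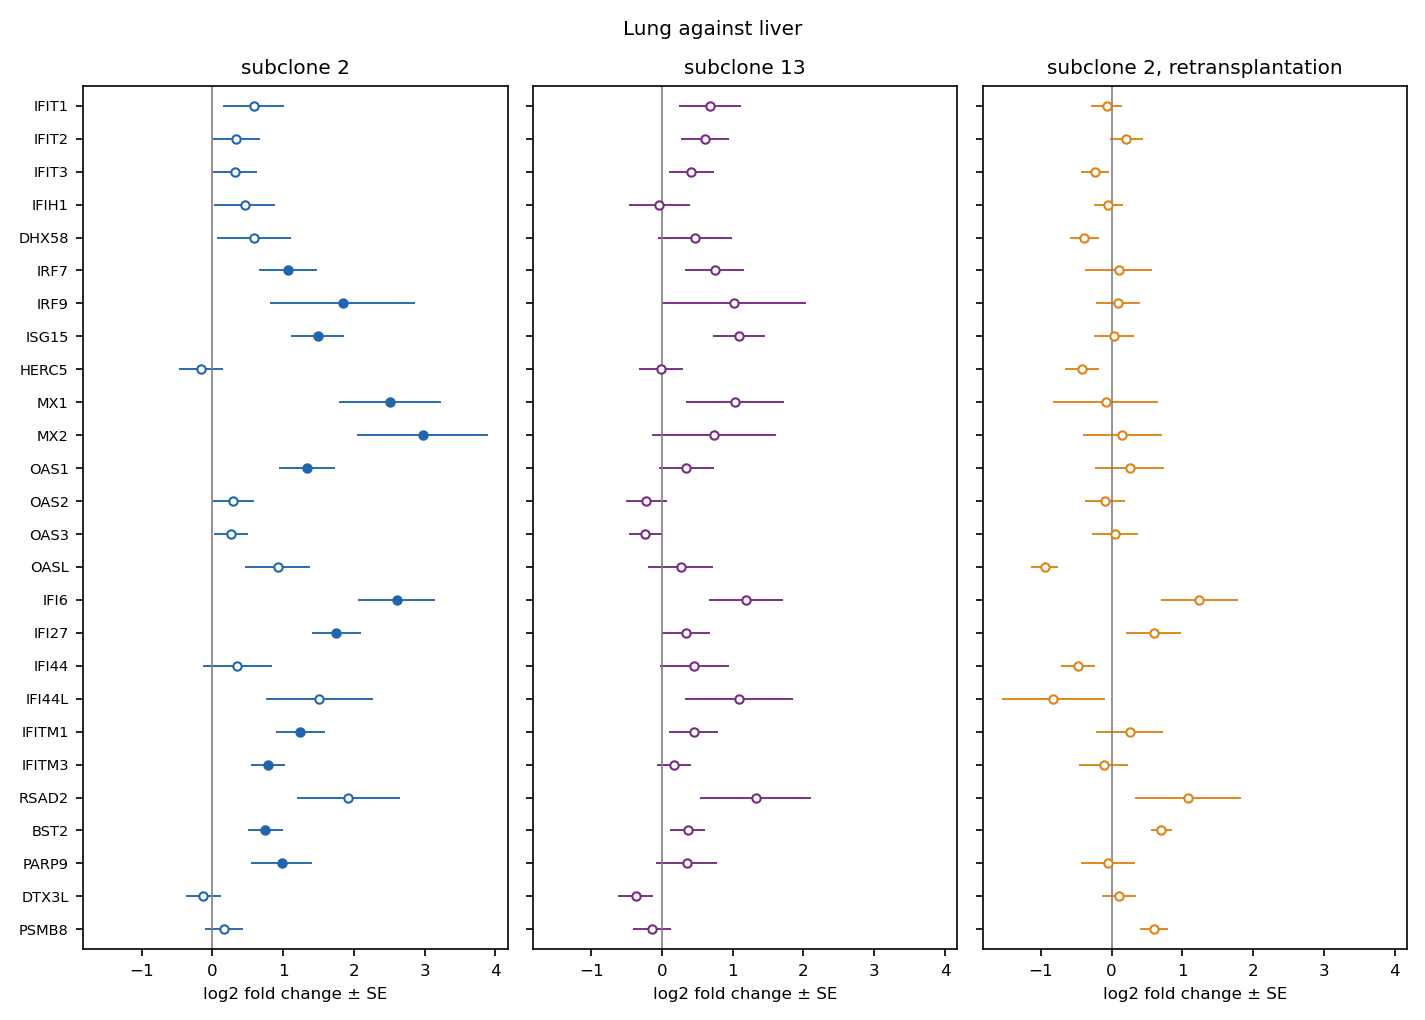
Log2 fold change of lung against liver metastasis for 26 members in subclone 2, in subclone 13 and in the retransplantation samples; points are estimates without a mouse term and bars are 1 SE, and filled points passed with the mouse term. Filled points appear in subclone 2 of the first experiment only, and all are above 0.

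Whether the organ difference itself differed between the subclones was tested as an interaction. No member passed in any of these 3 tests in either fit. Of all genes 0% passed for lung against tumour, 0% for liver against tumour and 0% for lung against liver without the mouse term, and 0%, 0.00574% and 0% with it. The unadjusted p was under 0.05 for 0, 1 and 1 members without the mouse term and for 4, 7 and 11 with it, and DESeq2 called 0 in each. The smallest adjusted p among the members was that of IFI27, whose lung against liver log2 fold change was -1.51 ± 0.32 in subclone 13 minus subclone 2 with the mouse term (adjusted p = 0.451). No organ difference of a member was thus shown to differ between the subclones.

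Between the subclones, RSAD2 was lower in subclone 13 in each organ, and most members were fitted lower in subclone 13 in lung. The median log2 fold change of subclone 13 against subclone 2 was -0.43 in lung (40 of 47 lower in subclone 13). In tumours it was 0.0053, with no stable sign (-0.049 with RLE scaling), and in liver it was -0.0035, again with no stable sign (0.063 with the mouse term). No member passed in tumours without or with the mouse term (0.109% and 0.505% of all genes in either direction), with 3 and 8 at an unadjusted p under 0.05 and 1 called by DESeq2. In lung none passed without the mouse term (0.0632% of all genes lower in subclone 13; 8 members at an unadjusted p under 0.05 and 2 called by DESeq2), and 4 were lower with it (RSAD2, OAS1, IFI6 and OAS3), where 0.787% of all genes were. In liver none passed without it (0.201% of all genes higher; 4 members at an unadjusted p under 0.05 and 1 called by DESeq2), and IFI27 and MX2 were higher with it, where 0.976% of all genes were. The log2 fold changes in lung were -1.32 ± 0.40 for OAS1 (adjusted p = 0.298 without and 0.00554 with the mouse term), -1.51 ± 0.53 for IFI6 (adjusted p = 0.442 without and 0.0295 with the mouse term) and -0.98 ± 0.24 for OAS3 (adjusted p = 0.131 without and 0.0288 with the mouse term). In liver they were 1.09 ± 0.34 for IFI27 (adjusted p = 0.288 without and 0.0114 with the mouse term) and 1.496 ± 0.89 for MX2 (adjusted p = 0.866 without and 0.0363 with the mouse term). None of these 6 calls held in every fit that left out 1 sample. The 4 in lung became 0 without the subclone 13 lung of mouse 1, 1 without the subclone 13 lung of mouse 2 or the subclone 2 lung of mouse 2 and 2 without the subclone 2 lung of mouse 3. The 2 in liver became 0 without the subclone 13 liver of mouse 2, and 1 without the subclone 2 liver of mouse 3. Without the subclone 13 liver of mouse 1 neither was left, and RSAD2 was called lower in subclone 13.

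Of the 47 members, RSAD2 had the largest fitted difference between the subclones in tumours and in lung, and CMPK2 had it in liver. RSAD2 group means were 1.70, 1.04 and 0.350 CPM in subclone 13 tumour, lung and liver and 3.35 CPM in subclone 2 liver. The size of these differences thus rests on low levels. The RSAD2 enzyme, viperin, makes a chain-terminating nucleotide from CTP, and the kinase CMPK2 beside it feeds the same step. RSAD2 (chr2:6865806-6898239, plus strand) stood at 6.01, 16.5 and 19.0 CPM in tumours, 3.39, 18.5 and 16.6 CPM in lung and 0.962, 3.53 and 5.56 CPM in liver in subclone 2. The subclone 13 values were 2.01, 1.23 and 1.87 CPM in tumours, 0.787, 0.692 and 1.63 CPM in lung and 0.796, 0.121 and 0.131 CPM in liver. Within each organ all subclone 13 samples were below all subclone 2 samples. The log2 fold change of subclone 13 against subclone 2 was -3.02 ± 0.76 in tumours (adjusted p = 0.273 without and 0.0625 with the mouse term), -3.66 ± 0.79 in lung (adjusted p = 0.0645 without and 0.0121 with the mouse term) and -3.06 ± 0.79 in liver (adjusted p = 0.159 without and 0.0732 with the mouse term). CMPK2, which shares 14 bp of exon with RSAD2 on the other strand, had few counts, with 0, 2.48 and 2.33 CPM in tumours, 2.66, 3.86 and 9.09 CPM in lung and 0, 0.0125 and 1.19 CPM in liver in subclone 2. It did not go above 0.667 CPM in subclone 13, and it passed in no comparison.

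For these members, mouse 1 was low in most groups. In the first experiment mouse 1 had the lowest value of the 3 mice for 32, 39 and 31 of 47 members in subclone 2 tumour, lung and liver, and for 26 and 29 in subclone 13 tumour and lung. In subclone 13 liver it was lowest for 11 members, and mouse 3 was lowest for 34. IFI44, MX2, STAT2, IRF9, XAF1, PARP9 and TRIM22 were lowest in mouse 1 in all 6 groups. How often mouse 1 was lowest over all genes was not counted, so this may not be particular to the members. In this experiment a mouse coincides with a sequencing run, apart from the subclone 13 samples of mouse 1, which were sequenced in 3 runs. In those samples the highest of the 3 libraries exceeded the lowest by a median factor of 1.08 in tumour (42 members above 5 CPM), 1.11 in lung (40) and 1.16 in liver (39), and by at most 1.45. For samples from different mice, run and mouse cannot be told apart.

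In the retransplantation samples, all from 1 run, lung and liver differed at the threshold for none of the members. That holds without (0% of all genes passed) or with the mouse term (0.479%), with 8 and 16 at an unadjusted p under 0.05, while DESeq2 without a mouse term called 3. The median log2 fold change of lung against liver was 0.10 over the members (29 of 47 higher in lung), beside -0.028 over all genes. Without the liver of mouse 6 that median was -0.013. ISG15 stood at 299, 281 and 229.5 CPM in the lung samples of mice 4, 5 and 6 and at 359, 266 and 165 CPM in the liver samples. IFI27 stood at 158, 203 and 90.4 CPM in lung and 61.8, 154 and 82.9 CPM in liver, and MX1 at 38.2, 47.4 and 19.3 CPM and 12.5, 86.8 and 11.8 CPM. For these 3 genes the lung and liver samples overlapped. The liver of mouse 5 was the exception in its group: it had the highest value of the 3 liver samples for 31 of 47 members, and it was above every lung sample for MX1 and within their range for IFI6. IFI6 had 69.5, 83.6 and 33.8 CPM in lung and 20.3, 48.8 and 10.1 CPM in liver (log2 fold change 1.24 ± 0.54; adjusted p = 0.403 without and 0.0580 with the mouse term).

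For some members the retransplantation groups did not overlap, although none passed. OASL was lower in lung, with 175, 148 and 120.2 CPM against 296, 299 and 256 CPM in liver and no overlap (log2 fold change -0.94 ± 0.19; adjusted p = 0.155 without and 0.0718 with the mouse term), and ISG20 was too, with 50.0, 42.7 and 51.7 CPM against 92.7, 68.4 and 96.4 CPM (-0.83 ± 0.18; adjusted p = 0.161 without and 0.0771 with the mouse term). BST2 was higher in lung, with 131, 140.4 and 137 CPM against 73.4, 90.6 and 86.8 CPM (0.70 ± 0.15; adjusted p = 0.164 without and 0.106 with the mouse term). PSMB8 had 54.3, 54.2 and 60.7 CPM against 48.6, 32.1 and 31.3 CPM (0.60 ± 0.20; adjusted p = 0.297 without and 0.184 with the mouse term), again higher in every lung sample. In all, 6 members had every lung sample above every liver sample and 2 the reverse. The share of all genes without overlap was not counted, so whether these counts differ from it is not known. IFIT3 had 206, 256 and 205 CPM in lung and 317, 212 and 256 CPM in liver, and HERC5 had 74.5, 52.8 and 51.2 CPM and 86.2, 95.0 and 57.2 CPM, with overlap.

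The difference between the experiments in lung against liver was tested in a joint fit of 19721 genes. The members' median was -0.47 (retransplantation minus first experiment; 36 of 47 negative), beside -0.013 for all genes. No member passed without (0.00507% of all genes) or with the mouse term (0.071%), with 8 and 16 at an unadjusted p under 0.05 and 0 called by DESeq2. The smallest adjusted p-values were those of OASL (-1.87 ± 0.42 with the mouse term; adjusted p = 0.0919) and MX2 (-2.53 ± 0.58; adjusted p = 0.0919), followed by ISG15 (-1.38 ± 0.36; adjusted p = 0.118). The retransplantation experiment holds no primary tumour samples, so the drop from tumour to metastasis could not be compared.

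Other genes of the pathway were read from fixed lists. Of the 10 interferon genes listed, IFNL1, IFNL2 and IFNL3 had a row, and none was above 1.63 CPM as a group mean. IFNB1, IFNA1, IFNA2, IFNE, IFNK, IFNW1 and IFNG have no row in the tables used here. Of the receptor chains, IFNAR1 had group means of 41.6 to 64.7 CPM, IFNGR1 of 33.3 to 38.9 CPM and IFNAR2 of 0.453 to 1.41 CPM over the 8 groups. Of 6 receptor genes none passed without the mouse term. With it IFNGR2 was lower in subclone 13 lung (-0.77 ± 0.21; adjusted p = 0.145 without and 0.0320 with the mouse term) and liver (-0.86 ± 0.21; adjusted p = 0.104 without and 0.0219 with the mouse term) than in the tumours, and IFNLR1 lower in subclone 13 than in subclone 2 lung (-1.55 ± 0.41; adjusted p = 0.180 without and 0.0418 with the mouse term).

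Of 14 genes for kinases, IRF3 and nucleic acid sensors, none passed without the mouse term. TYK2 had group means of 76.9 to 154 CPM and IRF3 of 49.9 to 73.2 CPM. JAK1 fell in lung with the mouse term, from 152 to 89.5 CPM in subclone 2 (-0.76 ± 0.27; adjusted p = 0.337 without and 0.0214 with the mouse term) and from 174 to 97.8 CPM in subclone 13 (-0.83 ± 0.27; adjusted p = 0.3005 without and 0.0126 with the mouse term). In liver its adjusted p was 0.649 in subclone 2 and 0.676 in subclone 13 with the mouse term. The DNA sensor CGAS was lower in subclone 13 liver, with 58.2 against 128 CPM (-1.14 ± 0.28; adjusted p = 0.104 without and 0.00246 with the mouse term), and the adaptor TICAM1 lower in subclone 13 than in subclone 2 liver (-0.79 ± 0.23; adjusted p = 0.233 without and 0.0349 with the mouse term).

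Of 6 feedback genes, SOCS3, an inhibitor of JAK kinases that is also a target of STAT3, rose in both organs. It went from 75.9 CPM in subclone 2 tumours to 575 in lung (2.92 ± 0.46; adjusted p = 0.00857 without and 4.55e-07 with the mouse term) and 395 in liver (2.38 ± 0.45; adjusted p = 0.0267 without and 1.16e-05 with the mouse term). In subclone 13 it went from 142 to 818 CPM in lung (2.52 ± 0.46; adjusted p = 0.0158 without and 9.94e-06 with the mouse term) and 544 CPM in liver (1.94 ± 0.45; adjusted p = 0.0772 without and 5.45e-05 with the mouse term). Subclone 13 tumours had more of it than those of subclone 2 with the mouse term (0.90 ± 0.43; adjusted p = 0.9996 without and 0.0254 with the mouse term). SOCS1, PIAS1, PTPN1, PTPN2 and PTPN6 passed in no comparison.

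Of 29 other interferon-stimulated genes outside the 47, ZC3HAV1 (ZAP), a protein that marks CpG-rich viral RNA for decay, fell in subclone 13 liver without the mouse term (-1.87 ± 0.32; adjusted p = 0.0111 without and 3.28e-05 with the mouse term). With it ZC3HAV1 was lower in all 4 comparisons with the tumours, at 479.7, 256 and 169 CPM in subclone 2 tumour, lung and liver and 621, 229 and 170.2 CPM in subclone 13. The chemokine CXCL10 was lower in subclone 13 liver with the mouse term, at 0.202 CPM against 13.4 CPM (adjusted p = 0.104 without and 0.00178 with the mouse term). LY6E, a surface protein that restricts coronavirus entry, had its lowest mean in subclone 2 liver: 207, 296 and 40.8 CPM in subclone 2 tumour, lung and liver, and 148, 207 and 152 CPM in subclone 13. Its subclone 2 lung against liver difference was 2.86 ± 0.58 (adjusted p = 0.107 without and 0.00274 with the mouse term) and its liver against tumour difference -2.34 ± 0.57 (adjusted p = 0.125 without and 0.00600 with the mouse term). With the mouse term it was also higher in subclone 13 than in subclone 2 liver (1.89 ± 0.56; adjusted p = 0.252 without and 0.0187 with the mouse term). The other 26 genes of that list passed in no comparison.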

How the data were processed

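RNA of sorted cells was measured in 30 libraries: 24 of the first experiment and 6 of the retransplantation experiment. RNA was isolated with the miRNeasy micro kit with DNase treatment, and libraries were made with TruSeq RNA v2, which does not keep the strand, per the labels' protocols. Per the submitters' processing notes, the build was GRCh38 and the tools were STAR, featureCounts, cutadapt and bcl2fastq 2.15.0.4, with no role or order given. The values deposited by the authors are whole-number read counts per gene in 2 tables, of which 926 genes in the first table and 0 in the second are at 0 throughout. Gene symbols were matched by Ensembl identifier, and gene positions and exon lengths come from GENCODE v29. Because the kit keeps no strand, reads of overlapping genes could not be told apart.

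For subclone 13 of mouse 1 the 3 libraries of each organ were summed, since 6 of these 9 are called technical replicates per the labels, which left 18 samples and 6 samples. Counts were filtered with filterByExpr, scaled by TMM and tested in edgeR 4.0.16 (R 4.3.3) by its quasi-likelihood F test, with all groups of an experiment in the fit, no mouse term and Benjamini-Hochberg adjustment over all genes tested (17418 and 17549 genes). The joint fit used the 33867 shared genes, of which 19721 were tested. Each SE is the absolute log2 fold change over the root of F. CPM values are scaled by TMM, and the heat map uses a pseudocount of 0.5 CPM. The 14 comparisons and 47 members were the same in every fit, and the members and gene lists were chosen with earlier results of these data known. A gene of the fixed lists is not reported here. The fit was tested on simulated data that held less spread than the real samples and no mouse effect. That test therefore does not show how many true changes are found, or how many calls are false, in these samples.

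Same-numbered samples come from the same mouse per the labels, so the number is a real pair. After subtraction of group means, the correlation had a median of 0.36 over 45 pairs of samples of the same mouse (lowest 0.15) and -0.25 over 90 pairs of different mice, and of 0.30 over 3 pairs (lowest 0.28) in the retransplantation samples. Deviations from a group mean cancel within the group, so a negative value between different mice is in part built in and is not separate evidence of pairing. Mouse as a replicate block lowered the biological coefficient of variation from 0.476 to 0.330 and from 0.296 to 0.227.

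Members with an adjusted p under 0.05 in any comparison, without or with the block, and at least 5 CPM as the mean of the higher group are given with values in every sample, up to 25, and so is the member of each role with the highest mean CPM per kilobase. The alternatives were the replicate block, DESeq2 1.42.0, RLE scaling, no filter, only the groups compared, 1 library in place of 3 and each sample left out. Leaving out all samples of a mouse, and leaving out samples in the fit with the block, were added after seeing the data. Promoter sequences are from RefSeq (GRCh38.p14). Of the 47 members, 9 had no listed promoter (IRF7, DHX58, IFIT2, IFITM2, OAS2, OASL, MX2, USP18 and TRIM22).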

Additional observations from a re-analysis of the deposited data

How the results depend on the processing

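None of the 57 results for named genes reversed in direction. These results were chosen because they passed without or with the mouse term, and most passed only with it. Over these, 672 comparisons with an alternative gave the same outcome as the fit without the mouse term, either passing or not passing. Another 141 passed only under the alternative, in part because the replicate block was used to choose them, and 42 no longer passed. The 672 are thus mostly results that passed in neither fit. The members' median took the other sign under 8 of 15 alternatives for subclone 13 against 2 in tumours (-0.21 to 0.14), 8 of 15 for the same in liver (-0.26 to 0.19), 2 of 15 for subclone 2 lung against tumour (-0.35 to 0.16) and 1 of 10 for the retransplantation samples (-0.013 to 0.44). RLE scaling moved the median of all genes by at most 0.071 on the log2 scale and gave 1 member in subclone 2 liver against tumour. In what follows, counts are of members called, where the fit without the mouse term gave 3 in subclone 13 lung against tumour, 4 in subclone 13 liver against tumour and 0 elsewhere. The share of all genes called was counted only for that fit and for the replicate block with all samples. Member counts under the other settings therefore have no background, and a change in them may not be particular to the members. With mouse as a replicate block the counts were 3 in subclone 2 lung against tumour, 9 in subclone 13 lung against tumour, 15 in subclone 2 liver against tumour, 12 in subclone 13 liver against tumour, 12 in subclone 2 lung against liver, 4 in subclone 13 against 2 in lung and 2 in liver. The block changed no other count. In that order DESeq2 gave 2, 7, 8, 8, 5, 2 and 1, with 1 in tumours between subclones and 3 in the retransplantation samples. No filter gave 2, 9, 17, 15, 11, 5 and 2, with 1 in tumours, 1 for the subclone difference of lung against liver and 4 in the retransplantation samples. With 1 library in place of 3 the count was 1 in subclone 2 liver against tumour and 1 each between subclones in lung and in liver. Fitting only the groups compared left 0 in subclone 13 liver against tumour.

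Leaving out single samples without the block gave 2 to 4 in subclone 13 liver against tumour, 0 to 1 in subclone 13 lung against tumour, 0 to 2 in subclone 2 liver against tumour, 0 to 2 in subclone 2 lung against liver, 0 to 1 between subclones in lung and 0 to 0 in the other comparisons. With the block the ranges were 7 to 14, 5 to 9, 9 to 13, 4 to 11 and 0 to 3, then 0 to 2 between subclones in liver and 0 to 3 in subclone 2 lung against tumour. Without all samples of mouse 1 and without the block, 9 passed in subclone 2 liver against tumour, 13 in subclone 13 liver against tumour, 7 in subclone 2 lung against liver and 1 each between subclones in tumour, lung and liver. Without mouse 2 or mouse 3 subclone 13 lung against tumour had 0, and without mouse 3 subclone 13 liver against tumour had 0. With the replicate block, leaving out mouse 1 gave 1 in subclone 2 lung against tumour and 1 between subclones in liver, where neither IFI27 nor MX2 passed and the 1 was RSAD2, lower in subclone 13. Leaving out mouse 2 gave 0 in subclone 2 lung against tumour, 4 in subclone 13 lung against tumour, 6 in subclone 2 liver against tumour, 5 in subclone 13 liver against tumour, 2 in subclone 2 lung against liver, 0 between subclones in lung and 1 in liver. Leaving out mouse 3 gave 4 in subclone 13 liver against tumour, 4 in subclone 2 lung against liver and 1 each between subclones in lung and in liver. Fits without a mouse or sample hold fewer samples; for the other settings the cause was not tested. Low members such as CMPK2 rest on few counts, and their fold changes have wide errors.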
